A study of Mus musculus with 2 samples.

Results

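The replication-dependent histone genes, the genes that supply the bulk of histone protein when chromatin is copied, were described in nucleoplasmic RNA of mouse macrophages. They were taken by symbol, as genes named Hist1h to Hist4h that have at least 1 protein-coding transcript in the annotation. This rule gave 67 genes of the 55536 in the tables, among 22028 protein-coding genes. Of these, 6 encode the linker histone H1, 18 H2A, 18 H2B, 12 H3 and 13 H4. The Hist1 cluster on chromosome 13 holds 54 of them, Hist2 on chromosome 3 holds 10, Hist3 on chromosome 11 holds 2 and Hist4 on chromosome 6 holds 1. The symbols Hist1h2aj, Hist1h2al and Hist3h2bb-ps have the same form but are annotated as pseudogenes, and were left out.

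The cells were macrophages grown from bone marrow of C57BL/6J mice, and both libraries come from the same treatment. Lipid A, the membrane anchor of lipopolysaccharide and a ligand of the receptor TLR4, was given at 100 ng/ml for 12 h, removed for 12 h, and given again at 100 ng/ml for 90 min. Ribosomal RNA was depleted from nucleoplasmic RNA, which other labels call a nuclear fraction, so RNAs without a poly(A) tail could be sequenced. Replicate 2 was prepared from 500 ng of RNA and replicate 1 from 1 µg. Sex and age are listed as not collected. The labels number the libraries as biological replicates and give 1 donor entry for both, so the spread between them may be technical. With 1 group of 2 libraries and no untreated cells analysed here, the values are levels in this condition and carry no p-value.

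Histone mRNAs of this class are made mainly in S phase, when new DNA must be wrapped. Their genes lack introns as a rule, and the mRNA ends in a short hairpin instead of a poly(A) tail. The hairpin is bound by the protein SLBP, and the U7 small nuclear ribonucleoprotein places the cleavage just after it. A second group of histone genes, such as H3f3a, H3f3b and H2afz, is transcribed outside S phase too and gives polyadenylated mRNA. Bone marrow-derived macrophages divide in response to the growth factor CSF1, and lipopolysaccharide is known to slow that division. In bulk RNA, fewer cells in S phase and less histone RNA per cell cannot be told apart.

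The hairpin, the feature that sets these mRNAs apart, was found in the GENCODE transcript of 44 of the 67 genes. It was searched after the stop codon as a 6-base stem that opens with GG and a 4-base loop that opens with TTT. Of 21799 other protein-coding genes, 24 (0.110%) held such a hairpin anywhere in a protein-coding transcript, a wider search than that after the stop codon. There were 6 forms, shown here with the flanking bases of 1 gene each, the hairpin in capitals and T for U. The first form was shared by 26 genes of H1, H2A, H2B and H3, and the second by 7 genes, each of H4. That of Hist1h2bb occurred in 6 genes of H1, H2B and H3. The remaining forms occurred in the H4 genes Hist1h4i and Hist2h4, in the H4 genes Hist1h4b and Hist1h4j, and in Hist2h2ac.
Hist2h2aa2 (form of 26 genes): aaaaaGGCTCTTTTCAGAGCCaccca
Hist1h4m (form of 7 genes): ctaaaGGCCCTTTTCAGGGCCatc
Hist1h2bb (form of 6 genes): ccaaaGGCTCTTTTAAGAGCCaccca
Hist1h4i (form of 2 genes): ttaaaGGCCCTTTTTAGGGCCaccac
Hist1h4b (form of 2 genes): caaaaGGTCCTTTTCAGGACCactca
Hist2h2ac (form of 1 gene): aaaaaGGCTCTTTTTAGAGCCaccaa
Forms with a stem that opens GGCC or GGTC were found in 11 genes, each of H4, and those that open GGCT in 33 genes, none of them of H4.

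Promoters of 62 of the 67 genes were found in the RefSeq table (GRCm38.p6, 250 bases before to 50 after the start), and exact matches to 4 motifs were counted on both strands. CCAAT was present in each matched promoter of H1 (6), H2A (18), H2B (16) and H3 (10), and in 3 of 12 of H4, against 42.3% of 17492 protein-coding promoters. TATAAA was present in 35 of 62, against 14.8%. The octamer ATTTGCAT, a motif to which OCT factors bind, was present in 7 of 18 H2A and 7 of 16 H2B promoters and in none of H1, H3 or H4, against 1.90%. AAACACA, the H1 box, was present in 5 of 6 H1, 2 of 18 H2A and 2 of 16 H2B promoters and in none of H3 or H4, against 7.17%. CCAAT and the octamer can overlap at their ends, and divergent H2A and H2B genes share much of 1 window, so these counts are not independent. The 230 bases before the start of 3 genes are shown as examples of the H2A and H2B, the H4 and the H1 layout, with the matches in capitals.
Hist2h2ac (chr3:96220881-96221110, minus strand): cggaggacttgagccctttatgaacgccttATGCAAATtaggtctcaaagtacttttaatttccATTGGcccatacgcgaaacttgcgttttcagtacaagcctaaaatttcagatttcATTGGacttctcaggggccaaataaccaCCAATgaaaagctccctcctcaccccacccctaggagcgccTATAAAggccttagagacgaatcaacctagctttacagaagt
Hist1h4m (chr13:21811516-21811745, plus strand): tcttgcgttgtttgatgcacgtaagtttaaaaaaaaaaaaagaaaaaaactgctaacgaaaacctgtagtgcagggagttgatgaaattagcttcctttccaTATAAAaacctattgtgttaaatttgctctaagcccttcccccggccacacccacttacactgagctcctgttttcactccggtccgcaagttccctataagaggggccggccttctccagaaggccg
Hist1h1c (chr13:23738577-23738806, plus strand): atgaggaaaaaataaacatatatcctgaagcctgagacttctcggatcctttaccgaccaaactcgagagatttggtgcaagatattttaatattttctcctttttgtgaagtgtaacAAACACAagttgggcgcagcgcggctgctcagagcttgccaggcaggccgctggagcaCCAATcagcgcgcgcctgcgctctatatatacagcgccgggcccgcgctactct
The Hist2h2ac window held 3 CCAAT matches, 1 TATAAA and 1 octamer, and it spans nearly all of the gap to Hist2h2be, which is transcribed the other way. Hist1h4m held 1 TATAAA and no CCAAT, and Hist1h1c held 1 H1 box and 1 CCAAT. Hist1h1c held no TATAAA, unlike 4 of the 6 H1 promoters. Matches were counted at any position, and the TATAAA of Hist1h4m lies much farther from the start than that of Hist2h2ac.

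Gene counts summed to 17789556 in replicate 2 and 29400127 in replicate 1, and a gene at 0 could hold up to 3 counts, which is 0.169 CPM (counts relative to the library total) in replicate 2 and 0.102 CPM in replicate 1. TPM, which divides by effective length and sums to 1 fixed total over all RNAs, gave protein-coding genes 303496 in replicate 2 and 204010 in replicate 1. Each of 8 macrophage markers reached 1 TPM in both libraries (median 103 TPM), and 0 of 12 markers of other cell types did (range 0 to 0.265 TPM, sum 0.890 TPM in replicate 2 and 0.710 TPM in replicate 1). Elane and Cd3e were listed at 0 by RSEM in both libraries. By kallisto, 1 of those 12, Cd3d, reached 1 TPM.

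Histone mRNAs were present at low to moderate levels, and they were spread over many genes. RSEM TPM summed over the 67 genes to 95.0 in replicate 2 and 132 in replicate 1, which was 0.0313% and 0.0648% of the protein-coding TPM of the same libraries. In both libraries 25 genes (37.3%) had 1 TPM or more, close to the 38.6% of all protein-coding genes. The median gene had 0.60 TPM, against 0.22 TPM over all protein-coding genes. The 5 highest genes held 40.04% of the summed TPM and the 10 highest held 58.2%. By kallisto, the second quantification of the same reads, 13 genes reached 1 TPM in both libraries.

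**Figure D1:**
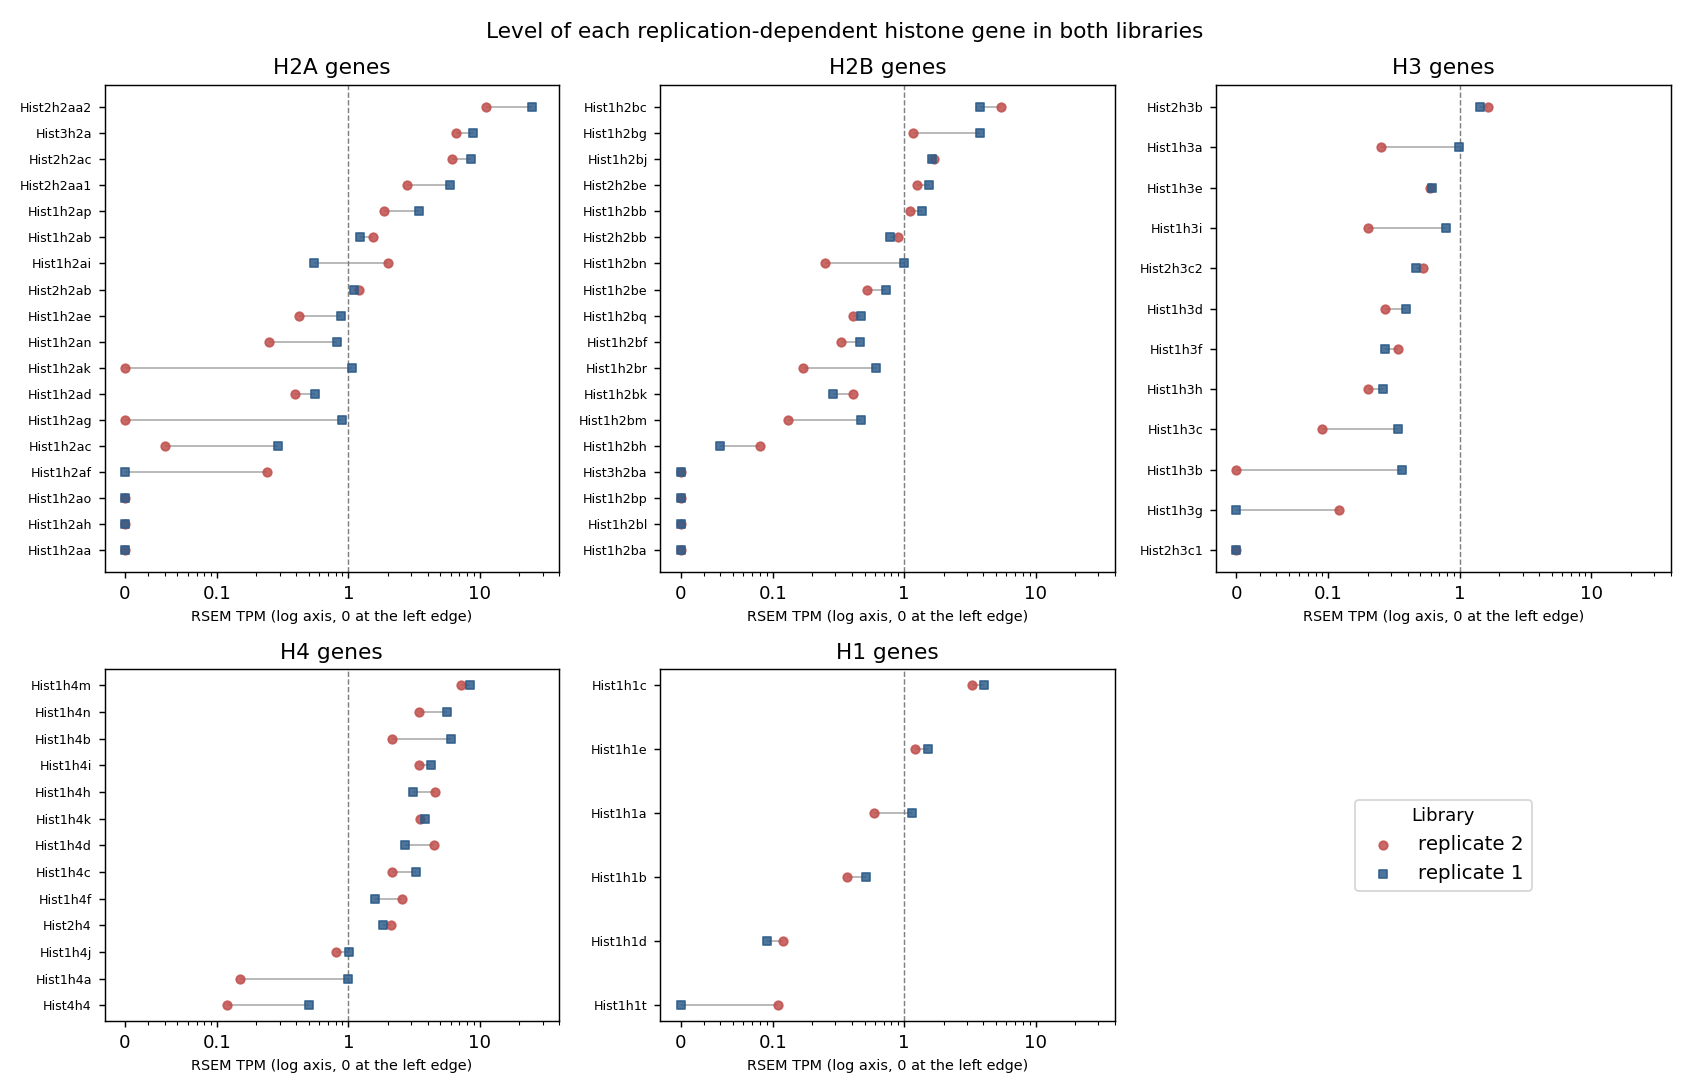
RSEM TPM of each of the 67 genes in replicate 2 (circles) and replicate 1 (squares), by histone type, on a log axis with 0 drawn at the left edge; the dashed line is 1 TPM. In the H4 panel 10 of 13 genes lie right of the line in both libraries, and in the H3 panel 1 of 12 does.

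H2A genes, whose protein pairs with H2B in the nucleosome, had 1 gene far above the rest. Hist2h2aa2 (ENSMUSG00000063954.7, chromosome 3, 96239749 to 96240276, minus strand, mm10) had 11.1 TPM in replicate 2 and 24.9 TPM in replicate 1. Its mean of 17.99 ± 9.77 TPM (SD, n = 2) was the highest of all 67, with libraries that differ by more than 2-fold. Its near copy Hist2h2aa1 had 2.81 TPM in replicate 2 and 5.89 TPM in replicate 1. Of the 31-base words of either transcript, 0% occur in no other annotated gene, and both are overlapped by antisense entries (Gm20632 and Gm20633), so the split between these genes is uncertain. Summed, the pair had 13.9 TPM in replicate 2 and 30.8 TPM in replicate 1, which was 47.8% of the mean H2A level.

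Below this pair, Hist3h2a and Hist2h2ac stood at similar levels. Hist3h2a, the H2A gene of the Hist3 cluster (chromosome 11, 58954685 to 58956830), had 6.57 TPM in replicate 2 and 8.80 TPM in replicate 1. It held the most reads of any member, 328 and 828 expected counts in the same order of libraries, on an annotated transcript of 2146 bases. Its single exon starts where Trim17 starts on the same strand, and 32.1% of its 31-base words also occur in Trim17, which had 84 counts in replicate 2 and 87.2 in replicate 1. Hist2h2ac had 6.17 TPM in replicate 2 and 8.58 TPM in replicate 1. In all, 7 of 18 H2A genes were past 1 TPM in both libraries, and the type's median was 0.593 TPM. The others with both libraries past 1 TPM were Hist1h2ap, Hist1h2ab and Hist2h2ab, at 1.15 to 2.67 TPM.

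H2B genes were lower, and 1 gene with an unusual transcript led them. Hist1h2bc (chromosome 13, 23684199 to 23692908) had 5.41 TPM in replicate 2 and 3.76 TPM in replicate 1, from 131 and 172 counts. Its annotated transcript has 2 exons and a 3' UTR of 742 bases in which no hairpin was found. Hist1h2bg had 1.16 TPM in replicate 2 and 3.78 TPM in replicate 1, Hist1h2bj had 1.68 and 1.62 TPM, and Hist2h2be had 1.25 and 1.54 TPM, in the same order of libraries. Of 18 H2B genes, 5 reached 1 TPM in both libraries, Hist1h2bb being the last of them. The median was 0.418 TPM.

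Of the 36 H2A and H2B genes, 24 formed 12 divergent pairs of 1 H2A and 1 H2B gene. Their annotated starts lay 176 to 306 bases apart. Some models begin at the start codon, such as those of Hist1h2aa and Hist1h2ba, the pair at 306 bases. The H2A gene was the higher partner in both libraries in 5 pairs and the H2B gene in 5. Several of these orders rest on few counts. Neither gene had a mean count of at least 10 in Hist1h2ad and Hist1h2bf, Hist1h2an and Hist1h2bp, or Hist1h2ai and Hist1h2bl. The same held for Hist1h2ah and Hist1h2bk, and for Hist1h2ao and Hist1h2bq. Hist1h2ah, Hist1h2ai, Hist1h2ao, Hist1h2ap, Hist1h2bq and Hist1h2br each have under 10% unique words, so the split of shared reads limits their orders too. In 1 pair the order differed between libraries, and 1 pair was at 0. Hist2h2ac averaged 7.38 TPM and its partner Hist2h2be 1.40 TPM, while in counts the order turned, with 48.0 and 125 for Hist2h2ac and 78 and 180 for Hist2h2be in replicate 2 and replicate 1. Their gene models are 520 and 2620 bases long. In the pair of Hist1h2ac and Hist1h2bc, the H2A gene had 0.0400 TPM in replicate 2 and 0.290 TPM in replicate 1, and the H2B gene, at the levels above, was higher in both libraries. Hist1h2ae averaged 0.650 TPM and Hist1h2bg 2.47 TPM, and Hist1h2ap averaged 2.67 TPM and Hist1h2br 0.390 TPM. Other pairs were close, such as Hist1h2ad at 0.475 TPM and Hist1h2bf at 0.395 TPM as means.

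H4 was the type with the largest share of its genes past 1 TPM. Its genes encode, with H3, the core tetramer of the nucleosome, and the coding regions of all 13 translate to 1 protein of 103 residues. Past 1 TPM in both libraries were 10 of these 13 genes. The median over the 13 was 3.60 TPM, the highest of the 5 types. Hist1h4m (chromosome 13, 21811746 to 21812147) led, at 7.24 TPM in replicate 2 and at 8.46 TPM in replicate 1. Hist1h4n had 3.43 and 5.65 TPM, Hist1h4b 2.13 and 6.01 TPM, and Hist1h4i 3.42 and 4.24 TPM, in the same order of libraries. The 6 others of the 10 averaged 1.98 to 3.82 TPM. Hist1h4j had 0.81 TPM in replicate 2 and 1.01 TPM in replicate 1, and Hist1h4a 0.15 and 1.00 TPM. Hist4h4, which lies alone on chromosome 6, was lowest, and had 0.12 TPM in replicate 2 and 0.50 TPM in replicate 1. Hist1h4k, annotated as its coding region of 312 bases alone, reached 3.51 TPM in replicate 2 and 3.83 TPM in replicate 1 from 8.84 and 18.5 counts, on an effective length of 97.0 and 98.7 bases.

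H3 genes were low as a type, as the reads were assigned. Only Hist2h3b among the 12 reached 1 TPM in both libraries, at 1.63 TPM in replicate 2 and at 1.42 TPM in replicate 1, and it shares its whole sequence with the antisense entry Gm20628. Hist1h3a had 0.250 TPM in replicate 2 and 0.980 TPM in replicate 1, Hist1h3e 0.590 and 0.610 TPM, and Hist1h3i 0.200 and 0.790 TPM, in the same order. The median H3 gene had 0.318 TPM, and 8 of the 12 encode the same protein. Although nucleosomes hold H3 and H4 in equal number, RNA assigned to H3 genes summed to 4.21 TPM in replicate 2 and 5.88 TPM in replicate 1, against 36.7 and 43.2 TPM for H4 genes. The replication-independent H3 genes H3f3a and H3f3b, which are no members, are given with their list further on.

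H1 genes, whose proteins bind the DNA between nucleosomes, were led by 2 genes. Hist1h1c (chromosome 13, 23738808 to 23740367) had 3.28 TPM in replicate 2 and 4.05 TPM in replicate 1, and Hist1h1e had 1.22 and 1.51 TPM. Hist1h1a had 0.590 TPM in replicate 2 and 1.14 TPM in replicate 1, and Hist1h1b 0.370 and 0.510 TPM. Hist1h1d averaged 0.105 TPM on an annotated transcript of 7425 bases. Hist1h1t, a linker histone gene of the testis, had 2 counts in replicate 2 and 0 in replicate 1.

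Of the 67 genes, 8 were listed at 0 in both libraries by RSEM. They were Hist1h2aa, Hist1h2ah, Hist1h2ao, Hist1h2ba, Hist1h2bl, Hist1h2bp, Hist2h3c1 and Hist3h2ba. Hist1h2aa and Hist1h2ba encode the H2A and H2B of the testis and form a divergent pair of their own. They were also at 0 by kallisto, together with Hist1h2ao and Hist2h3c1, whereas the other 4 of the 8 had kallisto TPM of at most 0.181. Hist1h2ao and Hist2h3c1 have 6.22% and 0% of words of their own, so a 0 there can reflect how shared reads were split.

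Summed by type, H2A and H4 held most of the histone RNA. H2A took 40.5% ± 5.79 of the summed TPM, H4 35.6% ± 4.23, H2B 13.7% ± 1.23, H1 5.76% ± 0.335 and H3 4.44% ± 0.00802 (SD, n = 2). The order of the first 2 types was not the same in both libraries. In replicate 2, H4 genes summed to 36.7 TPM and H2A genes to 34.6 TPM, and in replicate 1 H4 genes summed to 43.2 TPM and H2A genes to 59.0 TPM. Without Hist2h2aa1 and Hist2h2aa2, H2A held 26.7% of the remaining TPM. In expected counts, which do not divide by length, H1 held 13.4% and H4 24.6%.

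**Figure D2:**
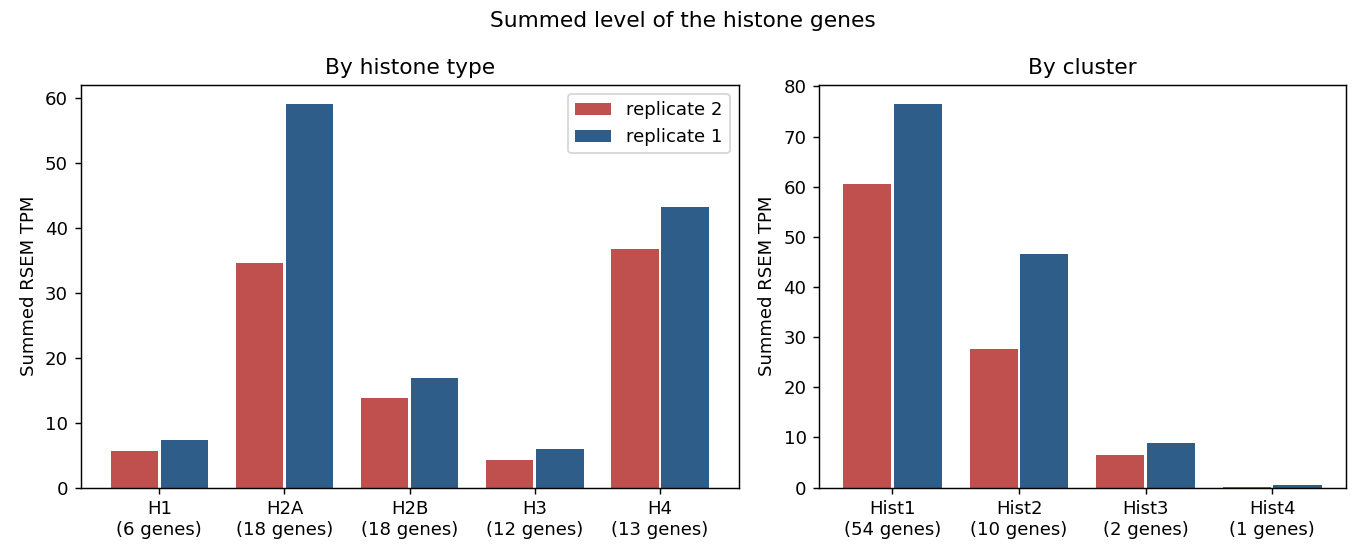
Summed RSEM TPM of the histone genes in replicate 2 (left bar) and replicate 1 (right bar), by histone type and by cluster. Each bar of replicate 2 is lower than that of replicate 1, and the gap is widest for H2A, at 34.6 against 59.0 TPM.

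By cluster, Hist1 held 60.8% ± 4.24 of the summed TPM, Hist2 32.2% ± 4.25, Hist3 6.79% ± 0.189 and Hist4 0.252% ± 0.178. The 10 Hist2 genes were higher per gene than the 54 Hist1 genes, with a median of 1.46 against 0.535 TPM, and 7 of 10 against 17 of 54 reached 1 TPM in both libraries. Within Hist1, members more than 100000 bases apart were taken as separate blocks. The block of 29 genes at 23.5 to 23.8 Mb summed to 34.2 TPM in replicate 2 and 40.5 TPM in replicate 1, and 11 of its genes passed 1 TPM in both. The block of 18 genes at 21.7 to 21.8 Mb summed to 20.8 and 29.0 TPM with 4 such genes, and that of 5 genes between them to 5.51 and 7.04 TPM with 2. The 2 testis genes form the last block, at 0. In expected counts Hist3 held 22.5%, nearly all of it Hist3h2a.

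How the annotation ends each transcript bears on these units. The transcript model ended within 100 bases of the hairpin in 22 genes, ran past it in 22, held a 3' UTR with no hairpin in 6 and held the coding region alone in 17. Models that end at the hairpin carried 53.9% ± 5.16 of the summed TPM and 24.7% ± 4.48 of the expected counts. Models that run past it carried 28.3% ± 2.17 of the TPM and 58.7% ± 1.56 of the counts. Among these, the model of Hist3h2a continues for 1643 bases after the hairpin, that of Hist1h1c for 840 and that of Hist1h1d for 4884. The median transcript length was 481 bases for models that end at the hairpin and 1255 bases for those that run past it. Gene tables do not show where along a transcript the reads lie, so reads beyond the hairpin were not counted apart.

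**Figure D3:**
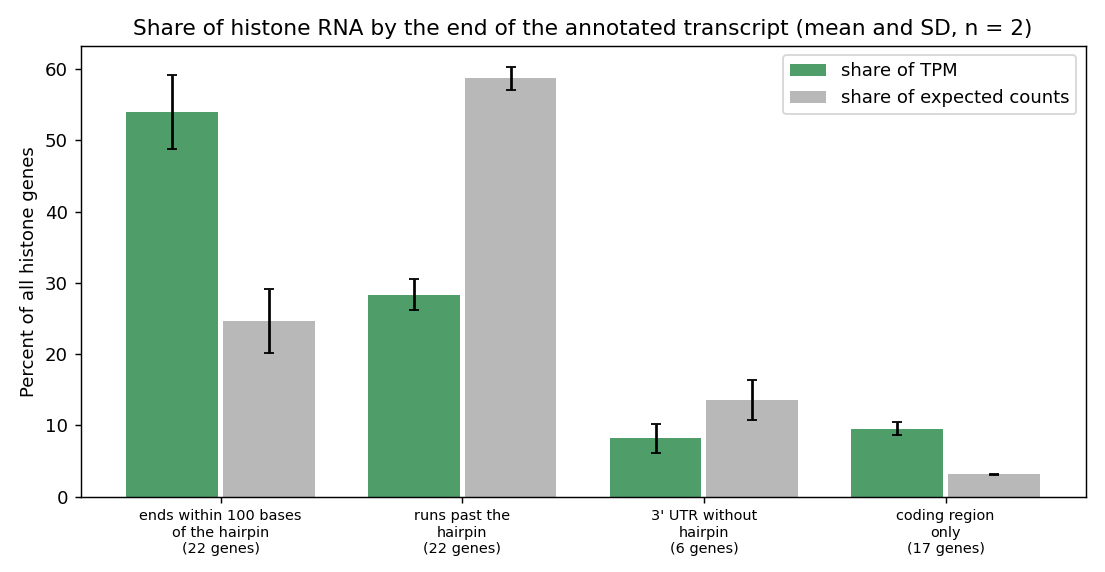
Percent of the summed RSEM TPM (left bar) and of the expected counts (right bar) of the 67 genes held by each class of annotated transcript end, as mean and SD (n = 2). Transcripts that end within 100 bases of the hairpin held 53.9% of TPM and 24.7% of counts, and those that run past it held 28.3% and 58.7%.

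Much of the histone sequence is shared between genes, which limits single-gene values. Fewer than 10% of the 31-base words were unique to the gene in 15 genes, which held 33.6% of the summed TPM. The share was 10% to 50% in 26 genes and at least 50% in the other 26. The 15 were 7 H2A, 4 H3, 3 H2B and 1 H4 gene, the last being Hist1h4m, which shares 91.7% of its words with Hist1h4n. Words were matched on both strands, so sharing with antisense entries is included. Hist2h2aa1 and Hist2h2aa2, which held 19.7% of the summed TPM, share all of their words with such entries.

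The libraries were then set against each other, as log2 ratios of replicate 2 over replicate 1 in TMM-scaled expected counts. Of the 67 genes, 35 had a mean count of at least 10 and 32 did not. Counts of the 32 were lower in replicate 2 for 19, higher for 5 and 0 in both for 8, before scaling for depth. Of the 35, 31 (88.6%) lay below 0, against 49.3% of the 14831 genes that met this minimum and 54.0% of protein-coding genes. The median was -0.66, against 0.01 over all such genes and -0.05 over protein-coding genes. Among 63 other protein-coding genes as short as the shorter members, 74.6% lay below 0 with a median of -0.31, and the part of length in the histone values was not tested. Below -1 were 10 of the 35 (28.6%), against 5.85% of all such genes, 5.01% of protein-coding genes and 4.91% of those in the members' range of effective length. That range takes in 11143 of the 11368 protein-coding genes, so it is no match for length. The share below -1 was 9.06% of protein-coding genes with a mean count of 10 to 100 and 12.7% of the 63 short genes. Above 1 were 0 of the 35, against 7.52% of all such genes, 3.74% of protein-coding genes (also in the members' range of effective length), 10.4% of those with a mean count of 10 to 100 and 4.76% of the short ones. With 1 library on each side, these values describe these libraries, and the starting amount of RNA differs between them too, so amount and replicate cannot be told apart.

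**Figure D4:**
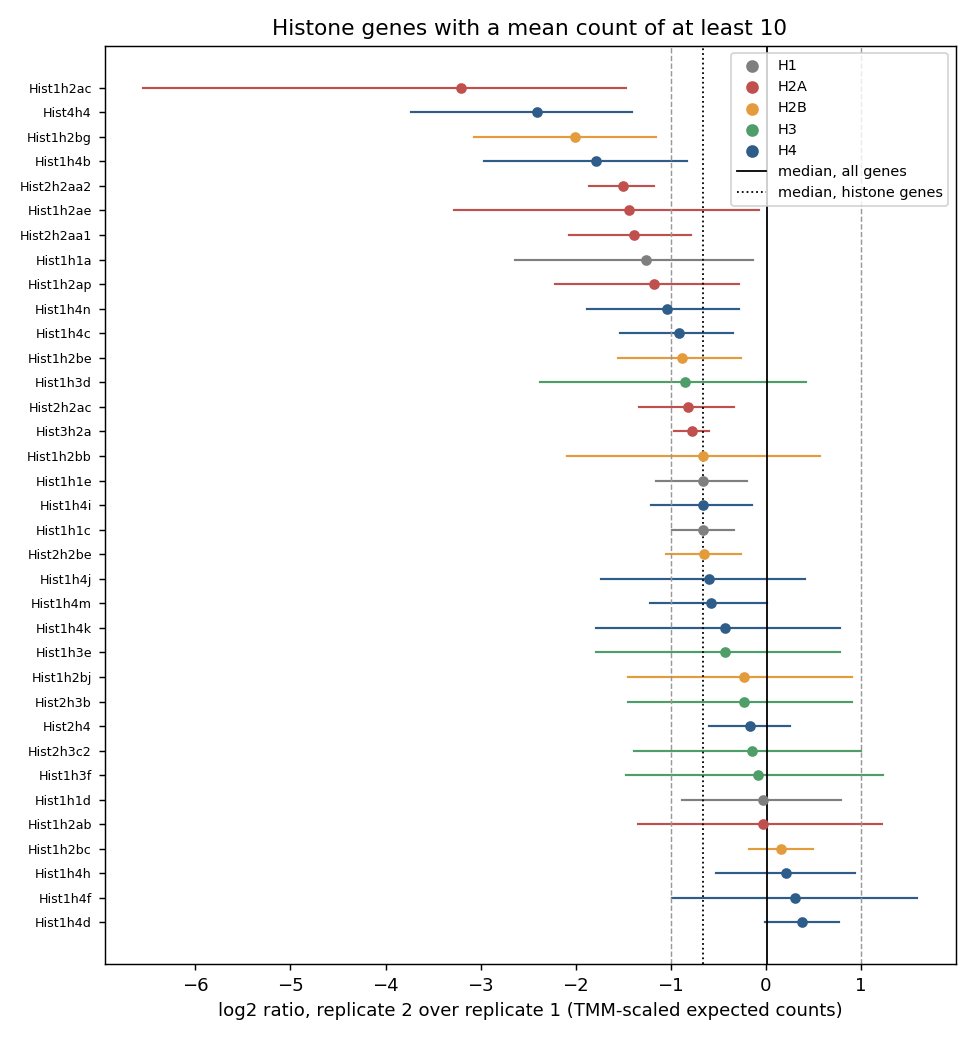
Log2 ratio of replicate 2 over replicate 1 for the 35 histone genes that averaged 10 or more counts, in TMM-scaled expected counts, with exact 95% counting intervals as lines and histone type by colour. The dotted line is their median, -0.66, the solid line that of all genes, 0.01, and the dashed lines are -1 and 1.

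Among the 10 genes below -1, H2A was the most frequent type with 5. Hist2h2aa2 had 88.6 counts in replicate 2 and 373 in replicate 1, a log2 ratio of -1.51 (exact 95% counting interval -1.86 to -1.17). For the sum of Hist2h2aa1 and Hist2h2aa2, which does not depend on how reads were split between these genes but may still share reads with the antisense entries, the ratio was -1.49 (-1.80 to -1.20). Hist1h2ac had 2.05 counts in replicate 2 and 32.0 in replicate 1, at -3.20 (-6.55 to -1.47), and Hist1h2ae and Hist1h2ap were at -1.44 and -1.18. The other 5 were Hist4h4 at -2.41, from 8 counts in replicate 2 and 65 in replicate 1 by RSEM, Hist1h2bg at -2.01, Hist1h4b at -1.78, Hist1h1a at -1.26 and Hist1h4n at -1.04. By kallisto Hist4h4 was not below -1, at -0.74 from 77.5 and 122 estimated counts in the same order of libraries, and the other 9 stayed below -1. The 4 genes above 0 were Hist1h4d at 0.38, Hist1h4f at 0.30, Hist1h4h at 0.21 and Hist1h2bc at 0.16, each with an interval that spans 0. Over the 35 genes, 18 intervals lay wholly below 0, 17 spanned 0 and 0 lay above it, so some genes counted as lower also span 0. By kallisto Hist1h2bc was at -0.040.

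Pooled over all 67 genes, histone counts were 1490 in replicate 2 and 3595 in replicate 1, a log2 ratio of -0.71 (-0.80 to -0.63), and -0.62 without the Hist2h2aa pair. By type the pooled ratio was -0.998 for H2A, -0.668 for H3, -0.627 for H1, -0.475 for H4 and -0.473 for H2B. The median ratio was -1.18 over the 5 of the 35 genes with fewer than 10% unique words, -0.43 over the 11 with 10% to 50% and -0.66 over the 19 with at least 50%, and the part of shared sequence was not tested. In TPM the median was -0.18 after adding 1 TPM, against 0.22 for all genes, and -0.29 after adding 0.1 TPM, against 0.34 for all genes, with 24 of 35 members lower in each. The list of DNA replication genes gave a median of -0.22, 17 of 23 lower and 1 below -1, beside the 49.3% of all genes and 54.0% of protein-coding genes that were lower. The 8 macrophage markers had a median of -0.30 with 5 lower, and their part in the histone difference was not tested.

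RSEM and kallisto divide the same reads among genes in different ways, and kallisto assigned more reads in all. Its counts of the 67 genes were 2627 in replicate 2 and 4511 in replicate 1, above those of RSEM in both libraries. As CPM, over the 41 members that averaged at least 10 counts in either, the median log2 ratio of kallisto over RSEM was -0.11, against 0.44 over all such genes and 0.13 over protein-coding genes. Above 1 lay 1 gene, against 35.6% of all such genes and 23.9% of protein-coding genes. None lay below -1, against 0.417% and 0.208%. The gene above 1 was Hist1h1d at 1.59, with 0.327 kallisto TPM in replicate 2 and 0.154 in replicate 1. The next highest were Hist1h2bq at 0.85, Hist4h4 at 0.83 and Hist1h2bh at 0.77. The lowest were Hist2h2aa2 at -0.44, Hist1h4c at -0.32, Hist3h2a at -0.27 and Hist1h1c at -0.26. Of the 4 highest, Hist1h1d and Hist4h4 have long models, of 7425 and 2863 bases.

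**Figure D5:**
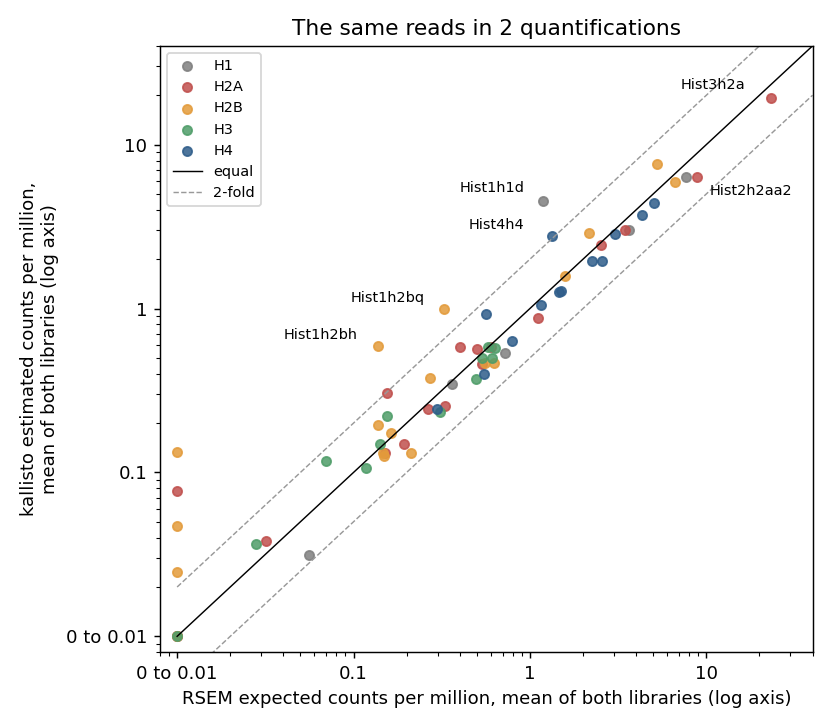
kallisto estimated counts (vertical) against RSEM expected counts (horizontal), both as CPM, for the 67 genes, as means of both libraries on log axes, with values under 0.01 drawn at that mark. Most genes lie between the dashed 2-fold lines. Nothing was added to the values drawn, and Hist1h1d, Hist1h2bh, Hist1h2bq and Hist4h4 lie above these lines. Genes at 0 by RSEM but not by kallisto lie above them too. After adding 0.5 to both, Hist1h1d has a log2 ratio of 1.59.

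The effective length that kallisto used for short transcripts differed between the libraries. For Hist1h4m, of 402 bases, it was 218 bases in replicate 2 and 172 in replicate 1, and in RSEM it was 183 and 182. For Hist2h2aa2 it was 342 and 290 bases by kallisto and 308 and 307 by RSEM. The kallisto TPM of short genes therefore rests on unlike lengths in the 2 libraries, whereas counts do not. Only 5 members have more than 1 annotated transcript, and of these Hist1h2be had the most reads. Its leading transcript by RSEM, ENSMUST00000091704.6, held, by kallisto, 34.1% of the TPM of the gene in replicate 2 and 59.4% in replicate 1, and by RSEM 72.5% and 89.6%.

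Genes that make, process and use histones were read from lists. The 11 replication-independent histone genes had a median of 4.53 TPM, 8 were past 1 TPM in both libraries, and 1 gene, H3f3b, was nearly as high as all 67 members together. H3f3b, an H3 gene used outside S phase, had 94.4 TPM in replicate 2 and 107 TPM in replicate 1. H2afy, the macroH2A gene, averaged 27.9 TPM, H3f3a 25.97, H2afz, the H2A.Z gene, 16.9, H2afj 8.21, and H1f0, a linker histone of resting cells, 4.53. H2afv and H2afx were at 1.48 and 1.47 TPM, and H2afy2 and H1fx at 0.095 and 0.02. Cenpa, the centromeric H3, had 65 counts in replicate 2 and 37 in replicate 1, a log2 ratio of 1.36, the only 1 of 9 above 1. The other 8 ranged from -0.50 to 0.23.

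Listed factors that act in histone transcription or on the 3' end of histone mRNA were mostly present. They had a median of 5.55 TPM, and 17 of 19 were past 1 TPM in both libraries. Tut7, a uridylyltransferase, averaged 53.1 TPM, Srrt (ARS2), a partner of the cap-binding complex, 34.2, Hinfp, which binds H4 promoters, 13.0, and Sympk, the cleavage scaffold symplekin, 11.4. Slbp, the hairpin-binding protein, had 7.48 TPM in replicate 2 and 5.70 TPM in replicate 1, and Npat, the factor that gathers at histone loci, 2.60 and 1.79 TPM. None of the 18 tested lay beyond a log2 ratio of 1, and 8 were below 0.

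The 17 histone chaperones had a median of 8.28 TPM, and 15 were past 1 TPM in both libraries. Daxx, which with Atrx deposits H3 of the replication-independent kind, had 69.7 TPM in replicate 2 and 134 TPM in replicate 1, a log2 ratio of -1.50. Atrx averaged 35.0 TPM, Ubn1 12.8 and Nap1l4 12.5. Asf1b and Chaf1a, which serve replication-coupled assembly, were the 2 under 1 TPM, at 0.415 and 0.605. DNA replication and S phase genes were lower, with 13 of 23 at 1 TPM in both libraries and a median of 1.28 TPM. Mki67 averaged 21.4 TPM, Pcna 17.0, Tk1 8.68 and Cdt1 3.63, and Rrm2 and Cdc6, at 0.280 and 0.195, lay near the low end. Slbp, Npat, Lsm11, Zfp473, Asf1b, Chaf1a, Rrm2 and Cdc6 were named after their values were seen. Over all protein-coding genes, 38.6% reached that level, and these list genes were chosen for their roles, so their counts describe presence only.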

How the data were processed

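The 2 libraries of mouse macrophage nucleoplasmic RNA, 1 group of 2 replicates, were read from the tables that the authors deposited on mm10 with GENCODE M21. Per the file headers, the first quantification has the columns of RSEM and gives expected counts, in which shared reads are split by a model, and TPM, scaled by the authors over all features. Deposited transcript tables add a percent, the share of the gene's TPM. The second has the columns of kallisto, and its deposited estimated counts and TPM were summed per gene. The aligner, software versions and strand setting are, in the sources used here, not given, so overlapping and antisense genes can share reads. Rows that name no gene held 0.272% (replicate 2) and 0.766% (replicate 1) of the deposited expected counts and were left out.

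Expected counts were rounded and scaled with TMM factors of edgeR 4.0.16 (1.06 in replicate 2 and 0.944 in replicate 1, over genes with at least 10 counts as a mean). The log2 ratio of replicate 2 over replicate 1 used a prior count of 0.5, and a value beyond 1 was counted. Counting intervals are exact binomial 95% intervals (Clopper-Pearson), and like the floor of 3 counts they cover counting error only. The ratio code was tested on simulated data. The kallisto over RSEM ratio used CPM (counts scaled to library size) with 0.5 added. Hairpins and 31-base words were read from GENCODE transcripts, and promoters from RefSeq (GRCm38.p6). Alternatives included DESeq2 1.42.0 size factors, library totals, other filters, units and thresholds, kallisto values and each library alone.

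The members, the 6 gene lists (replication-independent histones, transcription and 3' end factors, chaperones, DNA replication, macrophage and other-cell markers) and the tests were chosen with earlier results of these data known. Named by rule were the 4 highest members of each type, the highest of each cluster, each tested member beyond a log2 ratio of 1, the 4 largest kallisto over RSEM ratios each way, the 4 members nearest 1 TPM, the replication-independent list and the 4 highest genes of the other lists. Other members are named to account for all 67. The classes of transcript end and of shared sequence, the chromosome blocks, the effective lengths and the backgrounds of short and of low-count genes were chosen after values were seen.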

Additional observations from a re-analysis of the deposited data

Results flagged for a closer look

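A pseudogene of the same symbol form gave reads. Hist3h2bb-ps (chromosome 11, 58954048 to 58954512), which lies next to Hist3h2a and was outside the comparisons, had 1 expected count in replicate 2 and 8 in replicate 1, and the second value is above the 3 counts that a count of 0 allows. By kallisto it had 4 and 9 estimated counts in the same order of libraries.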

How the results depend on the processing

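No paired analysis was possible because both libraries belong to 1 group. In replicate 2 and replicate 1 alone, H2A held 36.4% and 44.6% of the summed TPM, H4 38.6% and 32.7%, and Hist4 0.126% and 0.378%. The summed TPM, 114 as a mean, was 55.0 by kallisto and 407 with TPM rescaled over protein-coding and long non-coding genes. The 25 members at 1 TPM in both libraries were 13 by kallisto and 4 at a threshold of 5 TPM. By kallisto the shares were 15.5% for H2B, 4.95% for H3, 6.44% for Hist3 and 0.688% for Hist4. In expected counts they were 13.4% for H1, 18.1% for H2B, 3.58% for H3, 24.6% for H4, 51.1% for Hist1, 25.2% for Hist2, 22.5% for Hist3 and 1.17% for Hist4, and H2A without Hist2h2aa1 and Hist2h2aa2 held 26.7% of TPM. The last 2 settings were chosen after the data were seen.

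The median log2 ratio of replicate 2 over replicate 1, -0.66, stayed negative in each setting tried. It was -0.49 with library totals, -0.81 by kallisto, and -0.18 and -0.29 in TPM with 1 and 0.1 added. Library totals moved the median of all genes to 0.18, and TPM to 0.22 and 0.34. The 10 of 35 members below -1 became 21 of 67 with no filter, 2 of 14 at a mean count of at least 50 and 18 of 41 by kallisto. In TPM with 1 and 0.1 added they were 3 and 6 of 35. The number of members thus differs between settings, and shares of all genes below -1 are given for the main setting only. Members above 1 numbered 4 with no filter and 1 by kallisto. Of single named genes, Hist1h1d turned to 0.14 with library totals and to 0.039 and 0.21 in TPM with 1 and 0.1 added. In those TPM settings Hist1h2bj turned to 0.033 and 0.049 and Hist2h3b to 0.12 and 0.19, and Hist1h2bc turned to -0.040 by kallisto. The cause was not tested.

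The kallisto over RSEM median, -0.11, was -0.33 in rescaled TPM, and -0.15 to -0.12 with 1 library left out. In the libraries alone, 2 to 3 members lay above 1 and 0 to 1 below -1. The leading transcript of Hist1h2be held 46.8% of its TPM by kallisto and 81.0% by RSEM. By kallisto the list medians were 2.07 TPM for replication-independent histones, 3.19 for transcription and 3' end factors and 5.57 for chaperones. Depth limits single genes, 32 members having a mean count under 10. Shared sequence limits the split between near copies, 15 members having under 10% unique words and 26 having 10% to 50%.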
